A study of Mus musculus with 63 samples.

Results

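The clustered protocadherins are cell-surface adhesion proteins encoded by 3 neighbouring gene arrays, alpha, beta and gamma, on mouse chromosome 18. The genes were chosen by symbol, as those starting with Pcdha, Pcdhb, Pcdhga, Pcdhgb or Pcdhgc. RefSeq names 58 such genes, and all 58 were found in the gene tables, in 23 of 24990 rows. The 22 beta genes each had a row of their own. The 14 alpha and 22 gamma genes shared 1 row with 3 other genes, so the 36 could be read only as a sum, called here the joined alpha and gamma row.

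Each alpha and gamma gene has its own promoter and its own large first exon, which is spliced to constant exons shared by all genes of its array. Beta genes lack a constant exon, and each encodes a whole protein from its own promoter. A neuron uses a small combination of these promoters, a choice that involves CTCF, cohesin and DNA methylation, and the proteins then give the cell a surface identity by which its own branches avoid each other.

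The study examined the long noncoding RNA Chaserr and its neighbour Chd2, which encodes a chromatin remodeller. RNA-seq covered 47 libraries. Whole embryos at E9.5 and at E13.5 and adult brain were each compared between WT and Chaserr+/- mice with 3 libraries per genotype. Primary embryonic fibroblasts (mEFs), cultured from E13.5 embryos without head and liver, came as Chaserr+/- (3 libraries), Chaserr-/- (3), Chd2m/m (2) and Chaserr-/- Chd2m/m (3), each with 3 WT libraries from the same pregnancy or cross, which made 12 WT mEF libraries in 4 sets. The Chaserr allele is a deletion of the promoter and first exon, and the Chd2m allele is a frameshift in an early exon. Both were made in CB6F1 Ola HSD mice and backcrossed to C57BL/6 Ola HSD, and no group received a treatment. The titles of the Chaserr-/- Chd2m/m mEFs name a Chd2+/m cross, whereas those of their WT libraries name a Chaserr+/- Chd2+/m cross. The neuroblastoma line Neuro2a gave 2 input libraries and 2 RNA immunoprecipitation (RIP) libraries each with an antibody to CHD2 and with control IgG. ATAC-seq, which marks open chromatin, covered 12 mEF libraries.

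Sequencing depth ran from 7621335 reads assigned to genes in a CHD2 RIP library to 33192002 in a WT brain library. The targeted genes followed the labels. Between mutant and WT, Chd2 differed by 0.55 to 0.98 on the log2 scale in the 4 Chaserr+/- comparisons, by 1.45 in Chaserr-/- and by 1.88 in Chaserr-/- Chd2m/m mEFs, while Chaserr differed by -8.75 and -9.33 in the latter pair of genotypes. The Chd2m frameshift does not remove the RNA, and Chd2 read counts differed by 0.66 in Chd2m/m mEFs, so they do not check that label. The study's text describes the Chaserr-/- mEFs as independently derived and the ATAC-seq mEFs as taken from separate embryos. For the other groups the labels do not say which libraries came from separate animals or cultures, and p-values there may measure technical spread only.

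The beta array ran over 256 kb, from Pcdhb1 (chr18:37424652-37427108) to Pcdhb22 (chr18:37678007-37681073) in mm9 coordinates, with all 22 genes on the plus strand in the order of their numbers. Most were annotated as a single exon that holds the whole coding sequence. Between the beta and gamma arrays, Slc25a2 and Taf7 lie on the minus strand. Pcdhb9 was the most isolated gene, with 43244 bases between it and the beta gene before it. Pcdhb2 (27385 bases) and Pcdhb15 (22451 bases) also followed long gaps. Pcdhb14, Pcdhb16, Pcdhb17, Pcdhb18, Pcdhb20 and Pcdhb22 started within 2 kb of the end of the gene before them, and are called the 6 close tandem genes. Pcdhb20 began only 144 bases and Pcdhb22 only 39 bases after their upstream neighbours, so reads that run past the end of the upstream gene could be counted in them. These gaps come from GENCODE vM1, whereas reads were counted on RefSeq models. Those models gave Pcdhb19 a length of 4714 bases and Pcdhb21 one of 2712. Both are shorter than the GENCODE spans (chr18:37656651-37663781 and chr18:37673306-37677967). The gaps, and with them the close tandem label, may thus differ in the models counted.

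Beta genes are close copies of each other, and the counts of several were divided among copies by the authors' program. Pcdhb17 had an estimated count that was not whole (tolerance 0.005) in 43 of 47 libraries, Pcdhb20 in 39 and Pcdhb18 in 36, and the lowest number among genes other than the nearly readless Pcdhb1 was 15. The levels of single beta genes are uncertain to that extent.

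In WT samples the joined alpha and gamma row was abundant everywhere, and the beta genes were nearly silent in the E9.5 embryo. Levels are given in FPKM, which divides the count by gene length and library size. In E9.5 embryos the joined row stood at 49.7, 50.7 and 51.3 FPKM (50.6 ± 0.785, SD, n = 3), while all 22 beta genes together reached 1.23, 1.59 and 0.760 FPKM (1.19 ± 0.416). No beta gene reached 1 FPKM in any E9.5 WT library, although 16 to 17 had at least 1 read.

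In E13.5 embryos the joined row was 131, 111 and 120 FPKM (121 ± 9.79, n = 3) and the beta sum 24.0, 24.8 and 21.9 FPKM (23.6 ± 1.5). Adult brain had the highest mean levels of both, with 223, 219 and 174 FPKM for the joined row (205 ± 26.8, n = 3) and 43.3, 37.8 and 36.6 FPKM for the beta sum (39.3 ± 3.56). The lower joined-row value of 174 came from the brain library made with another kit (TruSeq). E9.5, E13.5 and brain libraries did not overlap in either quantity.

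Fibroblasts expressed the arrays too. Over the 12 WT mEF libraries the joined row ranged from 70.5 to 150 FPKM (median 112) and the beta sum from 7.11 to 18.8 FPKM (median 13.9). The set matched to Chaserr-/- Chd2m/m mEFs had the lowest joined row (70.5, 77.4 and 85.8 FPKM) and the highest beta sum (18.4, 18.6 and 18.8 FPKM), whereas the set matched to Chd2m/m mEFs had the lowest beta sum (9.19, 7.98 and 7.11 FPKM) with a joined row of 93.6 to 103 FPKM. The 4 sets did not overlap in the beta sum, so each mutant was read only against its own set.

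The input libraries labelled Neuro2a, which also held transcripts of brain glia (Mbp at 227 to 349 FPKM), had 155 and 183 FPKM of the joined row and 21.6 and 35.1 FPKM of the beta sum. The ratio of the joined row to the beta sum was 31.9 to 67.5 in E9.5 embryos, 4.48 to 5.47 at E13.5, 4.76 to 5.78 in brain, 3.84 to 14.4 in WT mEFs and 5.21 to 7.20 in Neuro2a input. E9.5 was thus the stage at which the arrays were most unequal, and the ranges of the other sources overlapped.

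**Figure D1:**
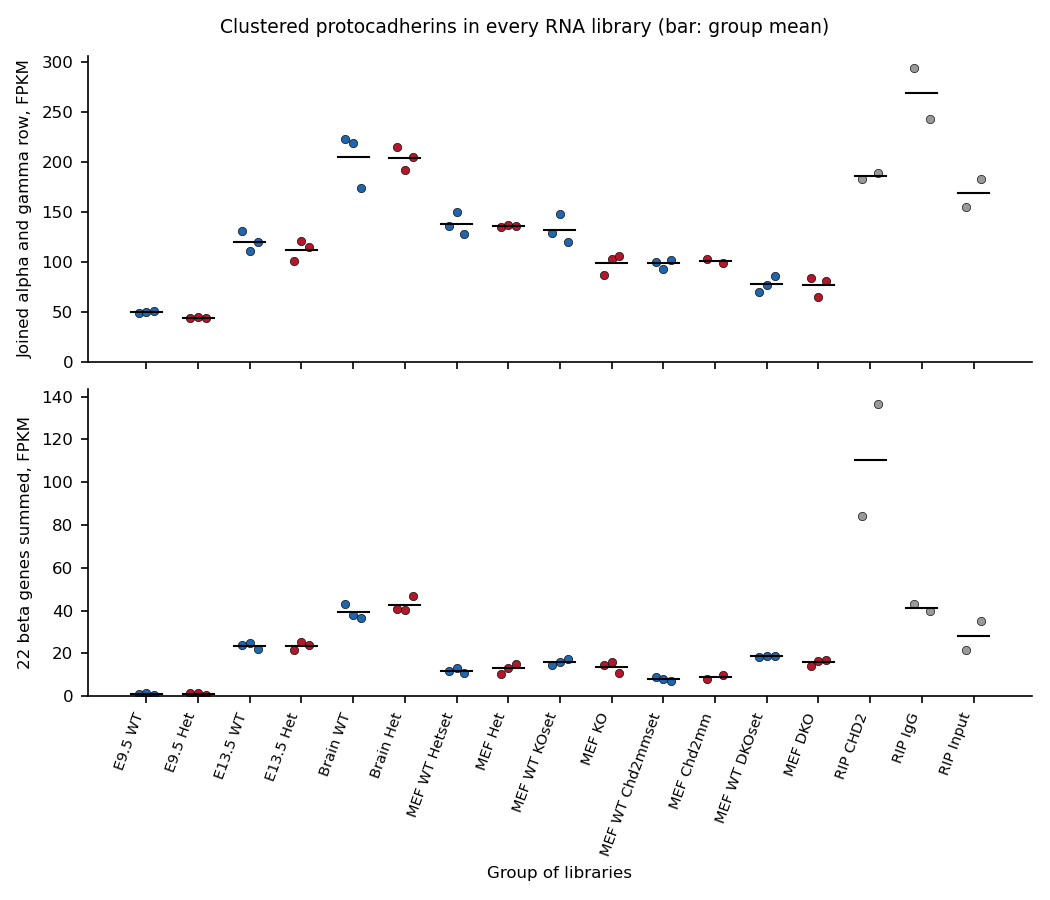
FPKM of the joined alpha and gamma row and of the sum of the 22 beta genes in each RNA library on linear axes, with WT libraries in blue, mutant libraries in red, RIP and input libraries in grey and a bar at each group's mean. WT brain is highest for both among the WT tissues and mEFs, E9.5 embryos lie near 1 FPKM for the beta sum, and mutant points lie among or beside their WT points.

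Pcdhb17, near the end of the array (chr18:37644675-37647943), was the highest beta gene by FPKM in 39 of 47 libraries. Its level was 2.52 to 3.26 FPKM in E13.5 WT embryos (2.87 ± 0.372), 4.47 to 6.21 in WT brain (5.51 ± 0.920) and 1.14 to 4.03 in WT mEFs (median 3.31, 12 libraries). In the input libraries it was 3.58 and 4.83 FPKM. Pcdhb17 thus led in E13.5 embryos, mEFs and Neuro2a input without exception among libraries, and in WT brain in 2 of 3 libraries.

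The exceptions in WT tissues were in E9.5 embryos and brain. At E9.5 Pcdhb22 had the highest mean at 0.270 FPKM, but its 3 libraries spread from 0.0600 to 0.490 around the 0.120 to 0.220 of Pcdhb17, and the order of these genes was not resolved. In the TruSeq WT brain library Pcdhb9 was highest at 4.78 FPKM, and in the TruSeq Chaserr+/- brain library it was again highest at 6.81 FPKM. In the WT brain libraries made with the SENSE kit, Pcdhb9 was at 2.20 and 2.79 FPKM. Kit and animal cannot be told apart for that gene.

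Behind Pcdhb17 the order of the beta genes differed by source. In E13.5 embryos Pcdhb22 (2.33 FPKM, range 1.99 to 2.54), Pcdhb20 (2.09) and Pcdhb7 (2.02) followed, and the ranges of these 3 overlapped. In brain Pcdhb20 was next at 3.12 to 3.90 FPKM (3.56 ± 0.400), followed by Pcdhb9 (3.26) and Pcdhb12 (2.58, range 2.39 to 2.93). In mEFs Pcdhb18 (1.15 ± 0.533), Pcdhb20 (1.09) and Pcdhb22 (1.08) came next, with overlapping spreads and a gap to Pcdhb17 of more than 2-fold in their means. In Neuro2a input Pcdhb11 (1.87 and 3.06 FPKM) and Pcdhb10 (1.62 and 2.92) followed.

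The first gene, Pcdhb1, was almost undetected. It was at 0 in 3 of 3 E9.5, 11 of 12 mEF and 2 of 2 input libraries, and reached a mean of only 0.0833 FPKM in brain and 0.0233 in E13.5 embryos. The 4 highest beta genes held 36.0% to 42.5% of the beta FPKM in brain, 38.8% to 40.6% at E13.5 and 41.2% to 53.4% in mEFs. The number of beta genes at 1 FPKM or more was 17 to 18 of 22 in brain, 8 to 9 at E13.5, 1 to 6 in mEFs and 8 to 13 in input. Reads were found for 22 beta genes in each WT brain library and for 19 to 22 in WT mEF libraries.

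Position in the array went with level. The last 7 genes, Pcdhb16 to Pcdhb22, held 66.3% of the beta FPKM in E9.5 embryos (61.8% to 73.0%), 49.2% at E13.5 (46.3% to 50.6%), 63.4% in mEFs (52.8% to 70.9%), 42.8% in brain (41.1% to 44.6%) and 41.5% in input (37.1% to 45.9%). The middle 8 genes, Pcdhb8 to Pcdhb15, held 9.47% at E9.5, 25.4% at E13.5, 19.7% in mEFs, 39.4% in brain and 38.0% in input. The 7 genes at the end near the gamma array thus held the largest mean share of the 3 stretches in each source, and the middle genes came closest to them in brain and Neuro2a input, where the shares of both stretches overlapped.

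**Figure D2:**
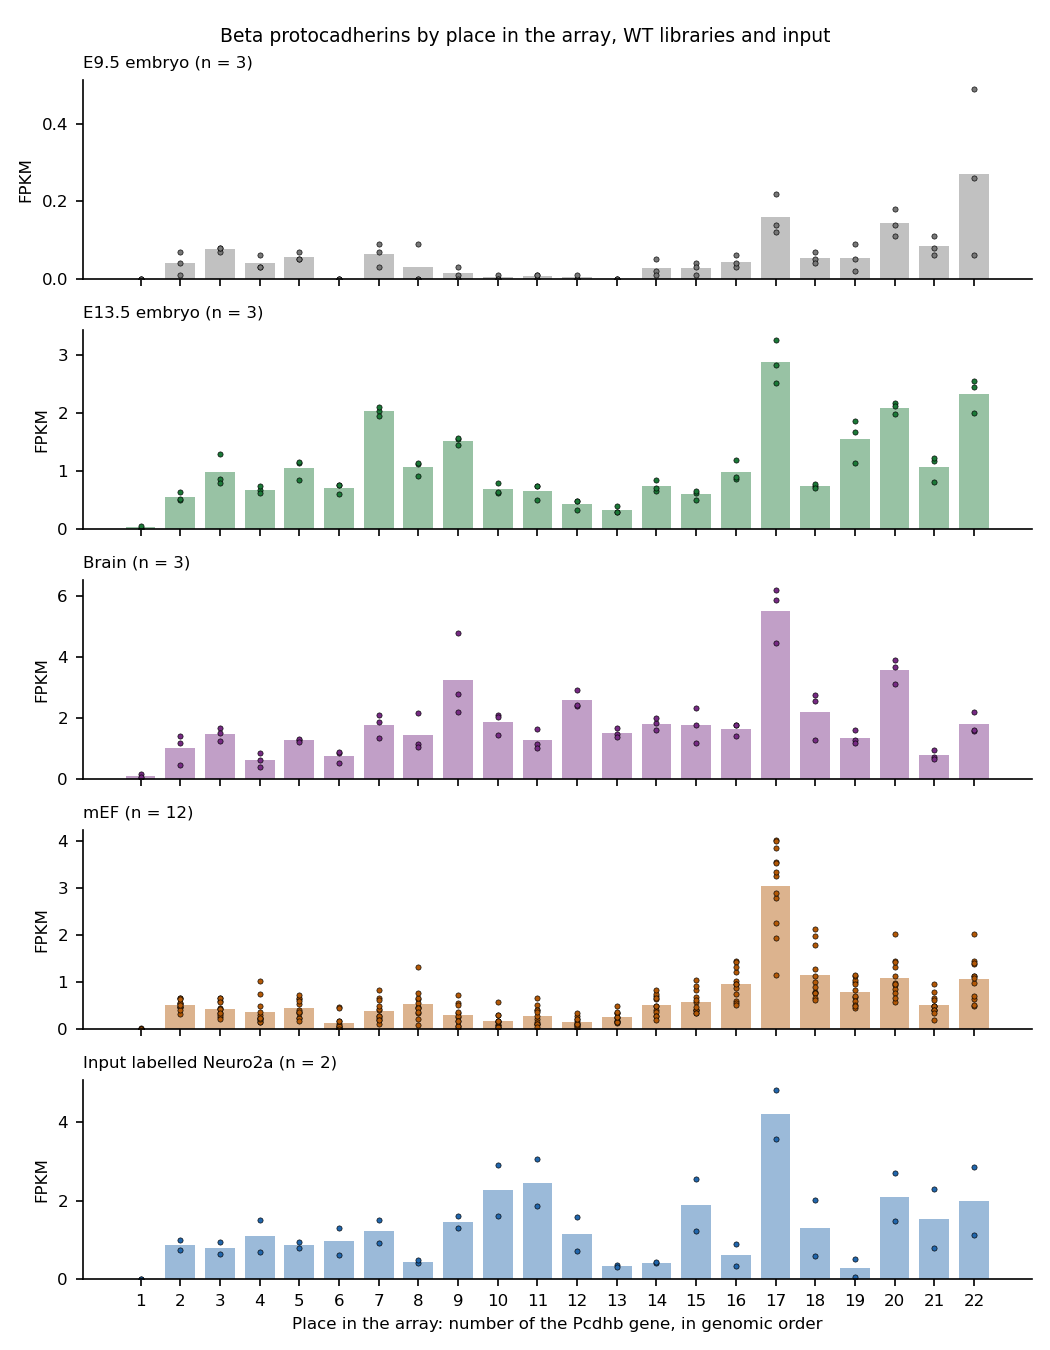
FPKM of each of the 22 beta genes in the order of the array in 5 sources, with bars at the mean and points for libraries, each panel on its own linear axis. Pcdhb17 stands above its neighbours in E13.5 embryos, brain, mEFs and Neuro2a input, and the middle genes fill in between E9.5 and brain.

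Across the 22 genes, log2(FPKM + 0.1) correlated with place in the array at Pearson's r of 0.522 in E9.5 embryos, 0.494 at E13.5, 0.512 in brain, 0.635 in mEFs and 0.384 in input. These are descriptions over 22 genes that share libraries and split reads, so no p is given. Place and GC content of the exons correlated at -0.448, and level and GC content at -0.302 to 0.0351. Level and exon length correlated at -0.033 in input to 0.443 in mEFs, where place correlated most. The part of exon length in the correlation with place was not tested. Between sources the gene profiles were most alike for E9.5 embryos and mEFs (r = 0.768) and for E13.5 embryos and mEFs (0.764), and least alike for E9.5 embryos and brain (0.381). By Spearman's rho the order differed, with E9.5 and E13.5 embryos most alike (0.799) and mEFs and Neuro2a input least alike (0.242).

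From E9.5 to E13.5, the beta genes rose together. All 22 of the 22 protocadherin rows that passed the filter on low counts were higher at E13.5 (edgeR's quasi-likelihood test, adjusted p under 0.05), where 24% of all rows tested were called higher. The median log2 fold change was 4.11 over the 21 beta genes tested and 0.04 over all genes. Pcdhb1 was not tested. In bulk tissue, more cells of a type and more RNA per cell cannot be told apart.

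Pcdhb17 had 0.369, 0.650 and 0.421 CPM, counts scaled by library size and TMM factors, at E9.5 and 7.56, 6.57 and 5.85 CPM at E13.5. These factors were set within each comparison, so CPM of 1 library differ between comparisons. The libraries of both stages were far apart, with a log2 fold change of 3.78 (SE 0.37, adjusted p = 1.22e-07). Pcdhb16 rose by 4.11 (adjusted p = 1.64e-07), Pcdhb20 by 3.45, Pcdhb19 by 4.44, Pcdhb7 by 4.55 and Pcdhb14 by 4.28. Pcdhb3 (3.26), Pcdhb5 (3.80) and Pcdhb15 (3.86) lay in the same range. The smallest beta change was that of Pcdhb22 (2.72), whose E9.5 libraries ranged from 0.175 to 1.38 CPM.

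Pcdhb6 and Pcdhb13 had no read in any of the 3 E9.5 libraries. Against the level that 3 counts over the whole E9.5 group would give (0.0367 CPM), Pcdhb6 was at least 30.8-fold and Pcdhb13 at least 22.8-fold higher at E13.5. The median over the beta genes was 4.11 also with those 2 genes at these bounds.

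The joined alpha and gamma row changed much less than the beta genes. It had 217, 224 and 222 CPM at E9.5 and 442, 376 and 406 CPM at E13.5, and rose by 0.89 (SE 0.26, adjusted p = 0.00869). The 2 stages did not overlap. Neuron markers moved with these genes, since their summed level was 211 to 246 CPM at E9.5 and 1716 to 2032 CPM at E13.5, with 12 of 12 higher. Fibroblast markers rose as well (6 of 8, from 1021 to 1548 CPM to 4990 to 5486 CPM). The part of either cell type in the protocadherin values was not tested.

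Between E13.5 embryo and adult brain, 11 beta genes and the joined row rose and none fell, where 30.5% of all rows were called higher and 32.4% lower. The median log2 fold change of the 21 beta genes was 1.14, against -0.06 over all genes. The 2 genes with the largest changes, Pcdhb12 and Pcdhb13, lie in the middle of the array.

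Pcdhb13 had 1.02, 0.737 and 0.756 CPM at E13.5 and 5.98, 5.31 and 4.2 CPM in brain, a rise of 2.61 (SE 0.44, adjusted p = 3.98e-05). Pcdhb12 went from 0.717, 1.02 and 1.02 CPM to 8.55, 7.05 and 6.07 CPM, which was the largest rise, at 2.96 (SE 0.64, adjusted p = 0.000383). Neither gene had overlapping groups. Pcdhb15 (1.97), Pcdhb18 (1.97), Pcdhb10 (1.85), Pcdhb14 (1.68), Pcdhb17 (1.33), Pcdhb2 (1.29), Pcdhb20 (1.14), Pcdhb16 (1.14) and Pcdhb3 (0.98) also rose.

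The joined row had 1046, 1034 and 708 CPM in brain, 1.19 above E13.5 on the log2 scale (SE 0.26, adjusted p = 0.000486). At the end of the array, Pcdhb22 (0.00, SE 0.48) and Pcdhb21 (-0.07, SE 0.41) and, further in, Pcdhb19 (0.19, SE 0.39) and Pcdhb7 (0.18, SE 0.48) did not pass the test. Values over the beta genes thus ran from -0.07 to 2.96 between embryo and brain.

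Kit was partly confounded with tissue here, since embryos and 1 brain library were made with TruSeq and the other brain libraries with SENSE. No share over all rows is given here for fits with brain libraries left out. A fit with the TruSeq brain library alone leaves 1 brain library, so no calls are given for it. The calls of Pcdhb18, Pcdhb17, Pcdhb16, Pcdhb10, Pcdhb3 and Pcdhb2 above are not shown to hold with kit matched. Pcdhb2 was at 0.10 with the TruSeq brain library alone. Without brain replicate 1 it was at 0.94 (adjusted p = 0.0934 by edgeR). Neuron markers summed to 5588 to 6207 CPM in brain, but only 5 of 12 were called higher than at E13.5 and 2 were called lower. Glial markers (astrocyte and oligodendrocyte) summed to 7614 to 10575 CPM in brain, against 64.1 to 68.7 CPM at E13.5, with 6 of 6 called higher. Their part was not tested.

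WT mEFs against E13.5 embryos moved both ways within the array. Where 28.3% of all rows were called higher and 39.5% lower, 2 members were higher and 4 lower. The fit took the 12 mEF libraries as 1 group with no term for their 4 sets. Its SEs and p-values thus treat libraries of the same set as independent, although the sets differed in the beta sum. Pcdhb18 rose from 2.66, 2.78 and 2.56 CPM to 3.64 to 11 CPM over 12 mEF libraries (1.20, SE 0.36, adjusted p = 0.00632), with no overlap. Pcdhb17 rose by 0.64 (adjusted p = 0.0327), a call that was lost without any one of the 3 E13.5 libraries (adjusted p 0.0503 to 0.131).

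Pcdhb7 fell by 1.83 (SE 0.35, adjusted p = 0.000105), from 4.83 to 5.24 CPM at E13.5 to 0.463 to 2.89 CPM in mEFs, again with no overlap. Pcdhb9 (-1.80, adjusted p = 0.00256), Pcdhb6 (-1.90, adjusted p = 0.0168) and Pcdhb10 (-1.35, adjusted p = 0.0213) were the other genes that fell. The call of Pcdhb10 was lost without E13.5 replicate 1 (adjusted p = 0.0856), and that of Pcdhb6 without replicate 2 (0.0544) or 3 (0.0560). The joined row was at 0.45 (SE 0.21, adjusted p = 0.0608 by edgeR and 0.0110 by DESeq2). The 6 close tandem genes had a median of 0.28 and the 15 other beta genes tested one of -0.60, beside a median of -0.20 over all genes.

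Without the 3 WT libraries matched to Chaserr-/- Chd2m/m mEFs, 11 members were called, 2 higher and 9 lower, and the call of Pcdhb17 gave way to that of the joined row (0.62, adjusted p = 0.000774). The share of all rows called without that set is not given here. Neuron markers stood at 124 to 321 CPM in mEFs against 1716 to 2032 CPM in E13.5 embryos, and 12 of 12 were lower. All mEF libraries were made with the SENSE kit, so kit and cell source cannot be told apart.

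Other genes of the pathway were read in the same fits. From E9.5 to E13.5, 19.7% of all rows were called lower, beside the 24% called higher. Of 12 nonclustered protocadherins, relatives encoded outside the arrays, 7 rose and 0 fell from E9.5 to E13.5, Pcdh10 by 3.66, Pcdh11x by 3.50, Pcdh15 by 3.44 and Pcdh9 by 3.18. From E13.5 to brain 9 rose and 2 fell, among them Pcdh20 (3.45) and Pcdh9 (2.96) upward and Pcdh12 (-5.63) and Pcdh18 (-3.59) downward.

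Of 18 genes for chromosome architecture and silencing, 12 fell and 0 rose from E9.5 to E13.5. Ctcf, the insulator protein that binds protocadherin promoters, fell by 0.86, the cohesin subunit gene Smc3 by 1.16 and the DNA methyltransferase gene Dnmt3b by 2.65. From E13.5 to brain 17 fell and 1 rose, with Ctcf at -1.03 and Dnmt3b at -3.59. Most of these genes thus moved opposite to the arrays in both steps.

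Of 16 genes for downstream effectors and processing, 10 rose and 2 fell from E13.5 to brain. Cyfip2 of the WAVE complex rose by 3.61, the kinase gene Ptk2b (Pyk2) by 6.81 and Wasf1 by 2.49, whereas Adam10, a protease that sheds protocadherins, fell by 0.83. Of 10 genes tested next to or inside the locus, 3 rose and 3 fell from E9.5 to E13.5. Taf7, which lies between the beta and gamma arrays, had 38.6 CPM at E9.5 and 25.2 at E13.5 (-0.61, adjusted p = 0.146) and fell by 1.20 from E13.5 to brain. The neighbours did not move as a block with the arrays.

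No protocadherin row was called in any of the 7 mutant comparisons by edgeR at an adjusted p under 0.05. By DESeq2 the count was 1, in Chaserr-/- mEFs, and 0 in the others. In Chaserr-/- mEFs edgeR called 16 of 13580 rows, whereas the paper, by DESeq2, reported far more changed genes. The DESeq2 share over all rows is not given here, so its count of 1 is not set against a background. At an unadjusted p under 0.05, edgeR gave 1, 0, 0 and 0 members in Chaserr+/- E9.5 embryos, E13.5 embryos, brain and mEFs, 4 in Chaserr-/- mEFs, 0 in Chd2m/m mEFs and 1 in Chaserr-/- Chd2m/m mEFs.

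Over all rows edgeR called 0%, 0.0314%, 0% and 0.173% for Chaserr+/-, in the same order, then 0.118%, 0.0145% and 0.0924% at the adjusted threshold. At the unadjusted threshold the shares were 3.12%, 6.34%, 2.47%, 8.36%, 33.9%, 4.51% and 9.89%. The members' 4 of 19 in Chaserr-/- mEFs therefore lay below the share over all rows.

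In E9.5 Chaserr+/- embryos only 4 members passed the filter. The joined row had 199, 205 and 204 CPM against 224, 229 and 229 CPM in WT. Every Chaserr+/- library lay below every WT library, as in 621 of 14500 rows tested. The difference was small (-0.17, SE 0.04, 95% interval -0.25 to -0.08) and did not survive adjustment (adjusted p = 1.00 by edgeR). Pcdhb20 was at -0.42 (SE 0.50) and Pcdhb17 at 0.07 (SE 0.55), and their 95% intervals ran from -1.59 to 0.76 and from -1.22 to 1.35. Fibroblast markers summed to 785 to 1118 CPM in Chaserr+/- and 1053 to 1601 CPM in WT embryos, with a median of -0.48 and 5 of 8 at an unadjusted p under 0.05, and their part was not tested.

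In E13.5 Chaserr+/- embryos, Pcdhb2 had 1.96, 1.89 and 1.80 CPM against 1.27, 1.66 and 1.31 CPM in WT. All 3 lay above the WT libraries, as in 916 of 15946 rows tested. The difference of 0.41 (SE 0.18) did not pass the test (adjusted p = 0.732). Pcdhb10 was at -0.35 (SE 0.19) and Pcdhb13 at 0.38 (SE 0.23). The joined row had 480, 546 and 523 CPM against 586, 502 and 537 CPM, a difference of -0.07 with a 95% interval of -0.25 to 0.11, and the groups overlapped. The beta median was 0.04, with 14 genes above 0 and 7 below.

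In Chaserr+/- brain, Pcdhb22 had 5.91, 6.35 and 7.30 CPM against 4.86, 5.02 and 5.80 CPM. The groups did not overlap, and the difference was 0.32 (SE 0.23, adjusted p = 1.00). Of 14911 rows tested, 613 had every Chaserr+/- library above every WT library. Pcdhb10 (0.35, SE 0.34) and Pcdhb5 (0.25, SE 0.26) came next. The joined row was at 1066, 920 and 856 CPM against 1097, 1082 and 734 CPM (-0.04, 95% interval -0.54 to 0.47). That interval was the widest of the 7 comparisons for the joined row. The fit had no term for kit or for same-numbered pairs, so its SEs and intervals include those differences.

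Glial markers differed beside these brain values. Astrocyte and oligodendrocyte markers summed to 5706 to 8257 CPM in Chaserr+/- and 7990 to 10958 CPM in WT brain. All 6 had negative values with a median of -0.54, and 1 of them, the myelin gene Mag (-0.82), had an unadjusted p under 0.05. The 5 Schwann cell and peripheral glia markers read summed to 196 to 281 CPM in Chaserr+/- and 243 to 360 CPM in WT brain, with a median of -0.41 over the 3 tested. The part of these markers in the protocadherin values was not tested.

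In Chaserr+/- mEFs, Pcdhb4 had 0.927, 1.21 and 1.12 CPM against 0.854, 0.838 and 0.552 CPM, all above WT, with a difference of 0.53 (SE 0.33, adjusted p = 0.731). Of 13282 rows tested, 1016 had every Chaserr+/- library above every WT library, with 2 members among them. Pcdhb20 (0.32, SE 0.21) and Pcdhb2 (0.35, SE 0.29) did not pass the test either. Schwann cell and peripheral glia markers summed to 13.9 to 16.2 CPM against 10.2 to 13.7 CPM, and their part was not tested. The joined row was nearly equal, with 619, 616 and 621 CPM against 625, 674 and 581 CPM (-0.02, 95% interval -0.21 to 0.17).

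Chaserr-/- mEFs had the members closest to the threshold. The joined row had 395, 464 and 477 CPM against 589, 690 and 552 CPM in WT, so that every mutant library lay below every WT library. The difference was -0.45 (SE 0.13, 95% interval -0.75 to -0.15), with an adjusted p of 0.0615 by edgeR and 0.0175 by DESeq2. With single libraries left out, the adjusted p was 0.0552 to 0.203.

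Pcdhb15, the gene after a long gap near the end of the array, had 0.719, 1.58 and 0.715 CPM against 2.82, 1.87 and 2.26 CPM, again without overlap (-1.18, SE 0.40, adjusted p = 0.0779). Without Chaserr-/- replicate 2 its adjusted p was 0.0296. Pcdhb21 (-1.04, adjusted p = 0.140) and Pcdhb8 (adjusted p = 0.142) were the other members under an unadjusted p of 0.05. Of the 19 members tested, 4 had every mutant library below every WT library, namely the joined row, Pcdhb3, Pcdhb8 and Pcdhb15, where 21.4% of all rows did.

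The beta sum did not follow, at 51.2, 53.2 and 36.6 CPM against 50.3, 56.0 and 58.8 CPM, and the groups overlapped. The beta median was -0.31, with 14 genes below 0 and 4 above, and Pcdhb9 stood at 0.81 (SE 0.46). The 6 close tandem genes had a median of -0.08, with 5 negative and 1 positive, and the 12 others one of -0.36. Other lists differed in the same libraries. Fibroblast markers summed to 10752 to 13202 CPM in the mutant and 14355 to 14993 CPM in WT. Their median was only -0.17, and 1 of 8 had an unadjusted p under 0.05, where 33.9% of all rows had. Schwann cell and peripheral glia markers summed to 21.2 to 39.3 CPM in the mutant and 37.9 to 52.8 CPM in WT, with a median of -0.64 and 2 of 5 at an unadjusted p under 0.05, Sox10 (-0.89) and Foxd3 (-0.78). Of the 18 architecture and silencing genes, 13 had an unadjusted p under 0.05, with a median of 0.41 and none called at the adjusted threshold by edgeR. Their part was not tested.

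In Chd2m/m mEFs, with 2 mutant libraries, Pcdhb18 had 3.78 and 5.04 CPM against 3.73, 3.33 and 2.97 CPM (0.40, SE 0.21, adjusted p = 0.937). Pcdhb19 had 2.40 and 3.30 against 1.96, 2.31 and 2.23 CPM (0.39, SE 0.24). Both genes lay above all WT libraries, the first by a small margin. So did 1425 of 13777 rows tested, with 3 of the 16 members tested among them. Pcdhb2 was at -0.47 (SE 0.36). The joined row had 472 and 452 CPM against 446, 432 and 463 CPM (0.05, 95% interval -0.08 to 0.18), and the groups overlapped. All 6 close tandem genes had positive values (median 0.31), as did 5 of the 9 other beta genes tested.

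In Chaserr-/- Chd2m/m mEFs, Pcdhb18 had 8.14, 6.73 and 7.45 CPM against 10.7, 8.80 and 9.79 CPM, with no overlap (-0.40, SE 0.17, adjusted p = 0.463 by edgeR). Of 14076 rows tested, 1041 had every mutant library below every WT library, with 2 of the 19 members tested among them. Pcdhb9 was at -0.63 (SE 0.33) and Pcdhb20 at -0.44 (SE 0.24). All 6 close tandem genes had negative values (median -0.32), as did 8 of the 12 others. In the joined row the mutants had 386, 305 and 375 CPM against 328, 353 and 394 CPM (-0.01, 95% interval -0.27 to 0.24), and the groups overlapped. Fibroblast markers summed to 6930 to 8309 CPM against 8652 to 11060 CPM in WT, with 7 of 8 at an unadjusted p under 0.05, and their part was not tested.

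The effect of Chaserr-/- was set against that of Chaserr-/- Chd2m/m, each with its own WT libraries, by an interaction term in edgeR. No member was called, where 0.112% of all rows were, and 2 of 19 members had an unadjusted p under 0.05, where 26.2% of all rows had. These 2 were Pcdhb9 (1.45, SE 0.57, adjusted p = 0.137) and the joined row (-0.44, SE 0.18, adjusted p = 0.146). DESeq2 called 0 members as well. The lower joined row of Chaserr-/- mEFs was thus not shown to differ from the value in the double mutant.

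**Figure D3:**
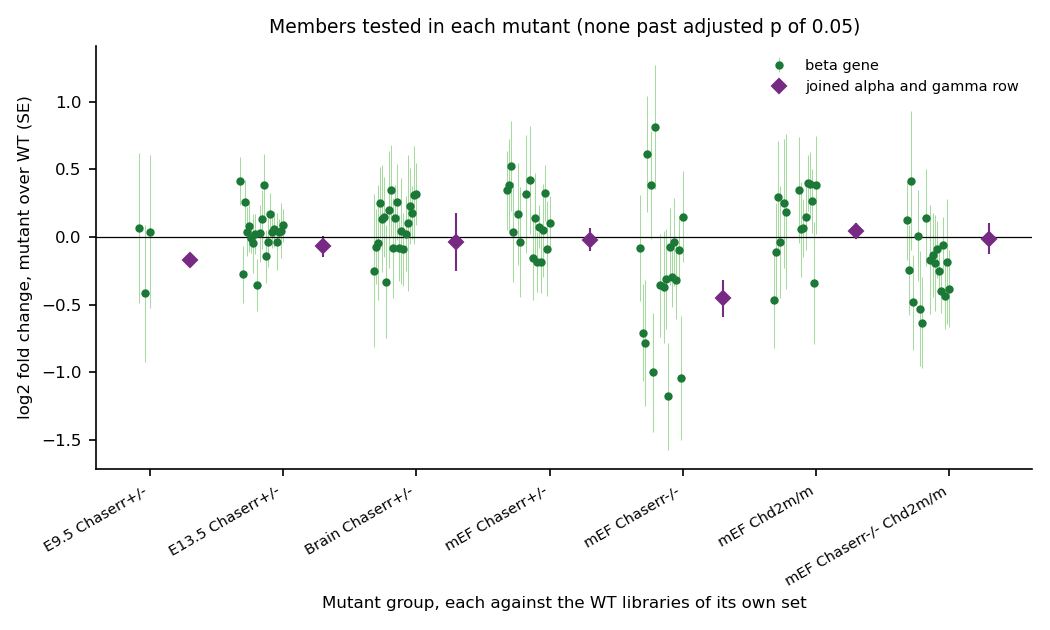
Log2 fold change of each beta gene tested (dots) and of the joined alpha and gamma row (diamonds) with SE bars in the 7 mutant comparisons, mutant minus own WT. The beta medians lie between -0.31 in Chaserr-/- mEFs and 0.19 in Chd2m/m mEFs, and no point passed the adjusted threshold in edgeR.

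The RIP libraries need a note on their identity before their values. The 6 libraries are labelled Neuro2a, a neuroblastoma line, yet all 6 astrocyte and oligodendrocyte markers were above 0 in each kind of library, with summed FPKM of 291 to 454 in input, 585 to 707 in CHD2 RIP, 1274 to 1797 in IgG RIP and 2574 to 5085 in WT brain. Mbp, the myelin basic protein gene, had 227 to 349 FPKM in input, 455 to 539 in CHD2 RIP, 987 to 1363 in IgG RIP and 2022 to 4330 in WT brain. Hand2, a sympathetic lineage gene picked after its values were seen, had 149 to 168 FPKM in input, 81.2 to 84.9 in CHD2 RIP and 11.6 to 67.7 in IgG RIP, and was listed at 0 in WT brain. Libraries labelled Neuro2a thus held transcripts of brain glia in amounts that differed between kinds of library, with IgG RIP highest. Among the 3 kinds, the sum of the 12 neuron markers was also highest in IgG RIP, at 1460 to 1860 FPKM. It was 898 to 1009 in input, 917 to 958 in CHD2 RIP and 1952 to 2690 in WT brain. That order did not hold for each gene, since Tubb3 had 422 to 462 FPKM in input and 301 to 332 in IgG RIP. The part of these glial and neuronal transcripts in the values of these libraries was not tested.

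The beta genes were higher in CHD2 RIP than in IgG RIP. Of the 22 members tested, 8 were called higher and 0 lower, where 11.1% of all rows were called higher, and 20 of 21 beta genes had positive values. The median over the beta genes was 1.22 on the log2 scale, against 0.02 over all genes. DESeq2 also called 8, and its share over all rows is not given here. No member was called when either CHD2 library was left out, when no row at all was called, and the beta genes named next then had adjusted p-values of 0.0866 to 0.288 with their direction kept. Without IgG replicate 1 the call of Pcdhb4 was lost (0.0505), and without input replicate 2 those of Pcdhb4 (0.0689) and Pcdhb11 (0.0644).

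Pcdhb2 had 20.7 and 32.1 CPM in CHD2 RIP, 4.26 and 3.31 in IgG RIP and 2.12 and 2.47 in input (CHD2 over IgG 2.79, SE 0.42, adjusted p = 0.00772). Pcdhb21, just before the last gene of the array, had 26.2 and 47.4 CPM against 2.25 and 4.45 in IgG and 2.20 and 5.54 in input (3.47, SE 0.59, adjusted p = 0.0102). For both genes the CHD2 libraries lay far above the other 4.

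Pcdhb15 had 27 and 34.7 CPM against 1.01 and 5.82 in IgG (3.21, SE 0.73, adjusted p = 0.0268), and Pcdhb22 had 18.6 and 31.3 against 3.88 and 4.85 (2.52, adjusted p = 0.0169). Pcdhb16 (2.71, adjusted p = 0.0152), Pcdhb11 (2.09, adjusted p = 0.0307), Pcdhb18 (1.92, adjusted p = 0.0429) and Pcdhb4 (1.74, adjusted p = 0.0432) were the others called. The called genes came from both ends and the middle of the array. Against input, a comparison chosen after seeing the data, 13 members were called, among them Pcdhb17 (1.55, adjusted p = 0.0458), Pcdhb13 (3.19) and Pcdhb3 (2.62) but not Pcdhb11 (1.29, adjusted p = 0.100). The share of all rows called against input is not given here.

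Pcdhb17, the highest beta gene in input, had 26.0 and 51.3 CPM against 22.9 and 13 in IgG and was not called (1.10, adjusted p = 0.115). In both CHD2 RIP libraries Pcdhb21 took the first place among beta genes, at 9.75 and 17.2 FPKM. Pcdhb9 was the only beta gene tested with a negative value, at -0.52.

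The joined alpha and gamma row did not share the pattern. It had 881 and 936 CPM in CHD2 RIP, 1283 and 1017 in IgG RIP and 771 and 803 in input (CHD2 over IgG -0.34, SE 0.31, 95% interval -1.04 to 0.36, adjusted p = 0.437). The ratio of the joined row to the beta sum in FPKM was 1.38 to 2.18 in CHD2 RIP, against 6.10 to 6.84 in IgG RIP and 5.21 to 7.20 in input. Both CHD2 RIP libraries thus lay below the other RIP and input libraries in this ratio. The counts used here cover exons, whereas the paper counted RIP reads over whole gene bodies and reported many intronic reads. Most beta genes are a single exon, while alpha and gamma genes have introns, so unspliced RNA is not counted alike in the arrays. Its part was not tested, and binding of alpha or gamma RNA by CHD2 cannot be read from these counts.

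Of the other lists, 4 of 18 architecture and silencing genes were called higher in CHD2 RIP, namely Cbx5 (3.24), Dnmt3b (2.42), Wapl (2.39) and Ctcf (1.20). Of the effectors 1 of 16 was called, Adam10 (2.18). None of 12 nonclustered protocadherins was called in edgeR, with a median of -0.90 and 6 at an unadjusted p under 0.05, and none of 10 genes next to the locus, where Taf7 stood at 1.65 (adjusted p = 0.109).

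**Figure D4:**
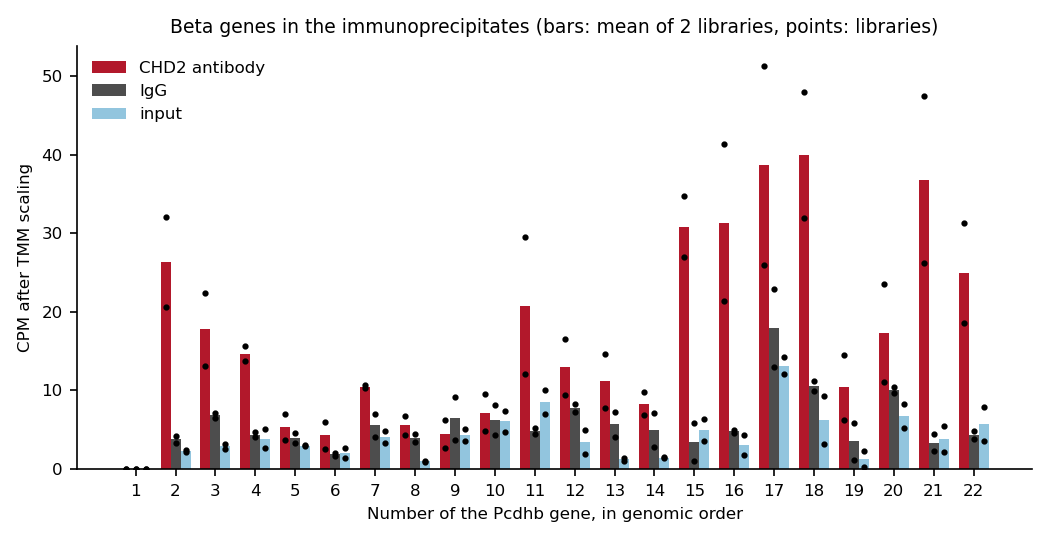
CPM of each beta gene in CHD2 RIP (red), IgG RIP (dark grey) and input (light blue), bars at the mean of 2 libraries and points for libraries. CHD2 RIP is higher for most genes, with its highest bars at Pcdhb18, Pcdhb17 and Pcdhb21, and its 2 libraries lie apart from each other for these genes.

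ATAC-seq peaks were scarce at beta promoters. A start counted as open where a deposited peak lay within 300 bases of it. The mm9 annotation gave 22 beta starts, 1 per gene, and 11 alpha and 10 gamma transcript starts, which it does not assign to single alpha or gamma genes. The last pair of gamma starts lie close enough for 1 peak to count for both. Of 12 mEF libraries, 10 had no peak at any of the 22 beta starts. The exceptions were a peak at Pcdhb17 in Chaserr-/- Chd2m/m replicate 3 (4.19-fold enrichment) and one at Pcdhb19 in the WT replicate 6 matched to Chaserr-/- (3.66-fold). Neither passed a stricter limit of −log10 q of at least 5, under which 0 beta starts had a peak in any library. Among 45930 other protein-coding starts, 31.0% to 59.5% had a peak. The highest beta gene of mEFs thus had a called peak in 1 of 12 libraries.

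Of the 11 alpha starts, 0 to 3 per library had a peak. Gamma starts had more, with 5, 9 and 8 of 10 starts in Chaserr-/- libraries, 4, 5 and 2 in the WT libraries matched to them, 1, 4 and 7 in Chaserr-/- Chd2m/m libraries and 3, 1 and 3 in their WT libraries. The first pair of groups met at 5 and the second pair overlapped. The total number of peaks called moved with these counts, at 62610, 91121 and 93597 in Chaserr-/-, 66967, 70516 and 58324 in its WT, 28349, 80703 and 81986 in Chaserr-/- Chd2m/m and 65345, 18661 and 65665 in its WT, and its part was not tested. Peaks were called in each library alone, and presence of a peak was not tested between groups.

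**Figure D5:**
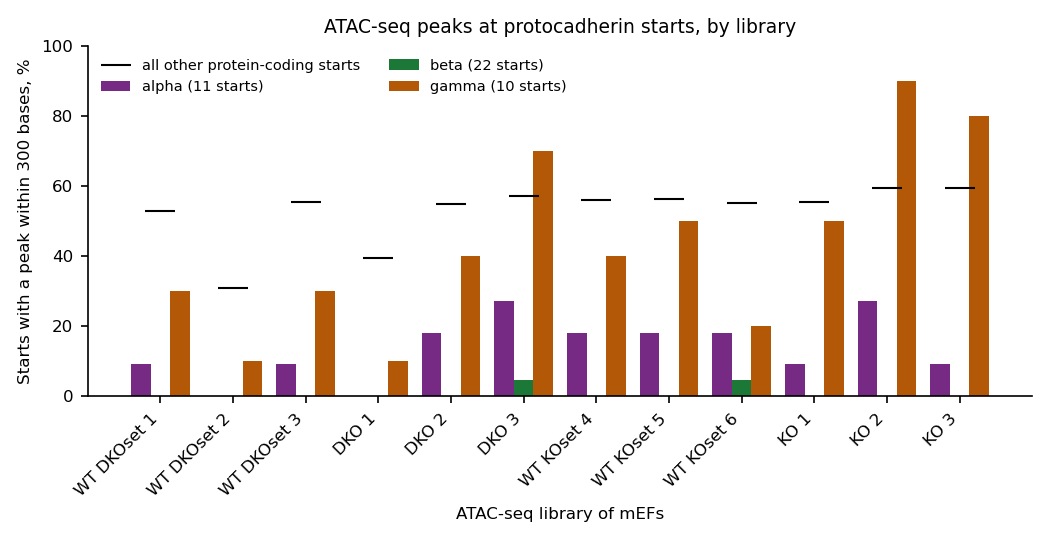
Percent of gene starts with an ATAC-seq peak within 300 bases in each of 12 mEF libraries for alpha (11 starts, purple), beta (22, green) and gamma genes (10, orange), with a black tick for all other protein-coding starts. Beta starts are at or near 0% in every library, and gamma starts vary the most between libraries.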

How the data were processed

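RNA was sequenced from 47 libraries (TruSeq for embryos and the third brain replicates, SENSE for the other brains and mEFs, rRNA-depleted RNA for RIP). The authors aligned reads to mm9 with STAR and ran RSEM on RefSeq genes. The deposited tables hold an expected count, TPM and FPKM for each gene. Expected counts were rounded and tested with edgeR 4.0.16 (R 4.3.3) by quasi-likelihood, with filterByExpr, TMM factors and Benjamini-Hochberg adjustment over all rows, called at 0.05. Each mutant was fitted with its own WT libraries, the WT tissues together, and the 3 kinds of RIP library together. The deposited FPKM were used only for levels and the deposited TPM as an alternative. The authors called ATAC-seq peaks per library with MACS2. The deposited peaks give a fold enrichment and a −log10 q-value, which were used as deposited. mm9 starts, ends and gaps came from GENCODE vM1, not from the RefSeq models used for the counts. Other samples, among them the 4C libraries, were not analysed here, nor were promoter and protein sequences of the arrays.

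Row names were matched to RefSeq by gene ID (23789 rows) or accession (1139 rows), 34 only in part and 28 not at all. Members, gene lists and tests were chosen with earlier results of these data known. Named members were the first and last of each array where they had a row, the 2 highest by FPKM per source, up to 10 called members per comparison and otherwise the 3 with the lowest p, and the joined row. Lists held 18 architecture and silencing genes, 16 effectors and processing genes, 12 nonclustered protocadherins, 12 genes next to the locus, and markers of neurons (12), neural progenitors (6), Schwann cells and peripheral glia (5), astrocytes and oligodendrocytes (6) and fibroblasts (8). Neural progenitor markers summed to 448 to 518 CPM in E13.5 and 512 to 574 CPM in E9.5 WT embryos. Another glial marker fixed with the lists is not reported here, and the list sums leave it out.

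Alternatives were DESeq2 1.42.0, RLE factors, no filter, a GC and length correction (lowess span 0.3), a replicate block, kit terms, leaving out each library and, chosen after seeing the data, CHD2 RIP against input. Same-numbered libraries were called paired where each pair's deviations correlated above 0.1 over 5000 genes. That held for Chaserr+/- brain (0.709, 0.643 and 0.850) and Chaserr+/- mEFs (0.266, 0.590 and 0.264). CHD2 and IgG RIP also passed (0.344 and 0.344), but 2 libraries per kind make both values equal, so the rule cannot decide there. The main fits had no term for pairs, and the replicate block was run only as an alternative. Any pairing comes from the data, since the labels give the numbers only. Scripts were tested on simulated counts with known changes.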

Additional observations from a re-analysis of the deposited data

Results flagged for a closer look

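Pcdhb18 was flagged for opposite directions in 2 mutants. Both Chd2m/m mEF libraries lay above all of their WT libraries (0.40 on the log2 scale), and all 3 Chaserr-/- Chd2m/m libraries lay below theirs (-0.40). Of all rows tested, 1425 of 13777 lay above in Chd2m/m and 1041 of 14076 lay below in Chaserr-/- Chd2m/m mEFs. Among members these were 3 of 16 and 2 of 19. The difference between these effects was not tested, neither effect passed the adjusted threshold in edgeR, and Pcdhb18 shares reads with other beta genes.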

How the results depend on the processing

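Of the recomputed counts and levels that answer a comparison, 179 kept their value within the limit for a count or the spread between libraries, and 18 moved. In Chaserr-/- mEFs DESeq2 called 1 member, and leaving out single libraries gave 0 to 1. In RIP, leaving out single libraries gave 0 to 9 and input in place of IgG 13. For brain against E13.5 with the TruSeq brain library alone, no count is given, since 1 brain library is left. mEFs against E13.5 gave 4 to 11 with libraries or sets left out. Shares over all rows are not given beside these counts, so they are not set against a background. TPM is another unit than FPKM, so levels in TPM counted as moved by their scale alone and do not test the processing. In TPM the beta sums were 2.29 (E9.5), 42.5 (E13.5), 84.9 (brain), 23.4 (mEF) and 47.1 (input). The joined row was 96.4, 217, 445, 188 and 277. Peaks with −log10 q of at least 5 left a mean of 4.67 gamma starts in Chaserr-/- libraries. Single values that changed sign were all uncalled. With the replicate block, E9.5 Pcdhb17 was at -0.0112. With single libraries left out, E9.5 Pcdhb17 ranged from -0.60 to 0.47 and Pcdhb20 from -0.88 to 0.00414, and the joined row from -0.20 to 0.0606 in brain, -0.0711 to 0.0351 in Chaserr+/- mEFs and -0.0754 to 0.10 in Chaserr-/- Chd2m/m mEFs. Against input the joined row of CHD2 RIP was at 0.21. The cause was not tested. The replicate block called 0 members in the 6 mutant comparisons it could be fitted to, paired or not, where it called 74 of all rows in Chaserr+/- mEFs in place of 23, and 10 in RIP, where 2 pairs share only a number. Chaserr-/- mEFs and their WT share no numbers. Low counts limit E9.5, where 19 of 23 rows were not tested.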
